A study of Drosophila melanogaster with 28 samples.

Results

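Genes that the study had listed as expressed in the male germline, and whose transcripts were moderately more abundant in males than in females, were followed across 7 comparisons of Drosophila melanogaster pupae at 48 hour APF (after puparium formation). The list came from the study's separate time course arrays and holds 671 array elements. Members were chosen by their values on the 8 arrays of the wild type strains Canton S (CS) and Berlin: an element needed values on at least 6 of these arrays and a mean log2 ratio of male over female of at least 1 and below 3, which is at least 2-fold and less than 8-fold. After 5 genes were left out by name, 237 elements for 237 genes remained, out of 15744 elements on the arrays. Of the rest of the list, 145 elements had a stronger male bias, 210 had little or none, 73 had values on too few arrays and 6 belonged to the genes left out. In the gene table, 112 of the members have a given name, 122 have a CG or CR number as symbol and 3 were not found.

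The testis of a 48 hour pupa holds spermatogonia, spermatocytes and differentiating spermatids. Spermatocytes transcribe a large set of genes that other tissues do not use, many of them copies of broadly expressed genes, and spermatids later build long flagella and rearrange their mitochondria from stored mRNA. Somatic sex in the fly is set by a splicing cascade in which tra directs the female form of dsx, and the male and female DSX proteins shape the sex-specific tissues. Germ cells depend on their own chromosomes and on signals from the somatic gonad, so that a change in somatic sex also alters the gonad in which they lie.

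RNA came from whole pupae, about 30 per sample, and 30 µg were labeled for each channel of a two-color array. Each comparison had 4 arrays, 28 in all, with the dyes exchanged between replicates 1 and 2 and replicates 3 and 4. The comparisons were CS males over CS females, Berlin males over Berlin females, male over female tud progeny, XX tra pseudomales over CS females, XX dsxD pseudomales over CS females, XX dsx nulls over CS females, and XY dsx nulls over CS males. The tud progeny are offspring of tud mutant mothers (also bw and sp) and of fathers with y, w and a GFP transgene on the X, and they lack a germline. The tra pseudomales carried tra over the deficiency Df(3L)st-j7, the dsxD pseudomales carried dsxD with Sb and e over dsx M+R15, and both dsx nulls carried dsx D+R3 over dsx M+R15. The XX mutants received a paternal X with the GFP transgene (y and w as well in the pseudomales), whereas CS pupae carried none of these. The mutation and the genetic background thus cannot be told apart in the 4 comparisons with CS. Among tud progeny only the females carried the GFP transgene, so sex and the paternal X cannot be told apart there either. Whether the CS RNA was shared between comparisons was not stated, and nothing says that replicates came from separate cultures, so the tests measure the spread between arrays.

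A single array held values for between 4783 and 12023 elements, and their number limits the precision. The non-coding RNA roX1, which coats the male X, was higher in males by 3.96 to 9.01 on the log2 scale on all 12 CS, Berlin and tud arrays, including replicates 2 and 4 of the tud progeny, for which fields of the sample description disagree about the sex in one channel. In the XX pseudomales roX1 lay between -0.36 and 0.46 relative to CS females, and in XY dsx nulls between -0.29 and 0.12 relative to CS males. The related RNA roX2 averaged 3.68 in CS, 2.15 in Berlin and 3.72 in tud, male over female, but was at 0.07 on tud replicate 1. It had no value in tra, dsxD or XX dsx null comparisons. In XY dsx nulls roX2 was higher than in CS males on every array, at 0.71, 0.34, 1.03 and 0.91. Replicate 4 of the XX dsx nulls stood apart. On that array roX1 was 4.41 above CS females, against 0.23 on replicate 3, the only other XX dsx null array with a value. On the same array the testis-specific tubulin betaTub85D was at 4.37, and the sperm genes Mst77F, Mst87F and Mst35Ba were at 3.73, 3.26 and 1.77, while replicates 1 and 3 had no value for any of these 4 genes and replicate 2 had only Mst87F, at 1.96. Counts in XX dsx nulls are therefore given with and without replicate 4. Of the 32 members called in either direction in XX dsx nulls, 21 were also called without it, 7 were not, and 4 had under 2 arrays left.

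Of 12 markers of spermatocytes and spermatids, chosen from the male germline list, all 12 were measured in CS, Berlin and XY dsx null comparisons. All arrays of these comparisons carried wild type male RNA. Only 3 had values on at least 2 arrays in tud progeny, 2 in tra pseudomales, 4 in dsxD pseudomales and 2 in XX dsx nulls. Their means lay between -0.09 and -0.04 in tud progeny and between -0.28 and -0.19 in tra pseudomales. In dsxD pseudomales they lay between -0.37 and 2.12, with a median of -0.11, and the highest was Mst87F, at 2.51 and 1.73. In XX dsx nulls the 2 means were -0.26 and 2.61. In the XY dsx nulls the 12 markers lay between -2.38 and -0.88 relative to CS males, with a median of -1.38. The lowest was Mst84Dc and the highest was the meiotic regulator bol. bol and betaTub85D are members. In whole-pupa RNA, fewer germ cells, less RNA per germ cell and changed expression in somatic tissue cannot be told apart. This holds for every value below except those of tud progeny, which lack germ cells. The study states that its list may also hold genes whose somatic expression depends on the germline, and that it could not separate them.

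The values that chose the members are given as a description. Their median log2 ratio of male over female was 1.75 over the 8 CS and Berlin arrays, a 3.36-fold difference. By strain the median was 1.69 in CS and 1.72 in Berlin. All 8 arrays had values for 153 members, and 211 members were above 0 on every CS and Berlin array with a value. The SD of a member over these arrays had a median of 0.53, with a range from 0.12 to 2.08. At the upper limit the last members were CG13008 (2.996 ± 1.14, SD, n = 7), CG31949 (2.99 ± 0.92, n = 8) and CG31546 (2.99 ± 0.38, n = 8), and the first elements beyond it were CG30355 (3.005 ± 0.74, n = 7), Adgf-A2 (3.04 ± 0.53, n = 7) and CG16972 (3.10 ± 0.50, n = 8). At the lower limit the last members were CG8728 (1.00 ± 0.16, n = 8), CG42232 (1.00 ± 0.66, n = 8) and CG11722 (1.00 ± 0.56, n = 8), and the first elements below it were CG4681 (0.998 ± 0.32, n = 8), the mitotic kinase polo (0.99 ± 0.66, n = 8) and Roe1 (0.99 ± 0.48, n = 8). These SDs are larger than the steps between neighbors, so both limits cut through a continuous range.

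The strains gave similar means for many members but not for all. CS and Berlin means were within 0.5 of each other for 128 members and more than 1 apart for 42. The widest gap was that of boly, with a mean of 2.44 in CS and -0.71 in Berlin (3 arrays), the only member whose mean was below 0 in a wild type strain. betaTub85D averaged 2.51 ± 0.28 in CS and 0.58 ± 0.64 in Berlin (SD, n = 4 each). Among the 16 members with values on all 28 arrays, the pyrimidine synthesis enzyme Dhod (1.52 ± 0.13) and the tubulin acetyltransferase Atat (1.18 ± 0.19) had the least spread over the 8 wild type arrays. The actin-binding protein Lasp (1.29 ± 0.95) had the most: Berlin replicate 1 was at -0.91 and the other 7 arrays lay between 1.13 and 2.13.

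**Figure D1:**
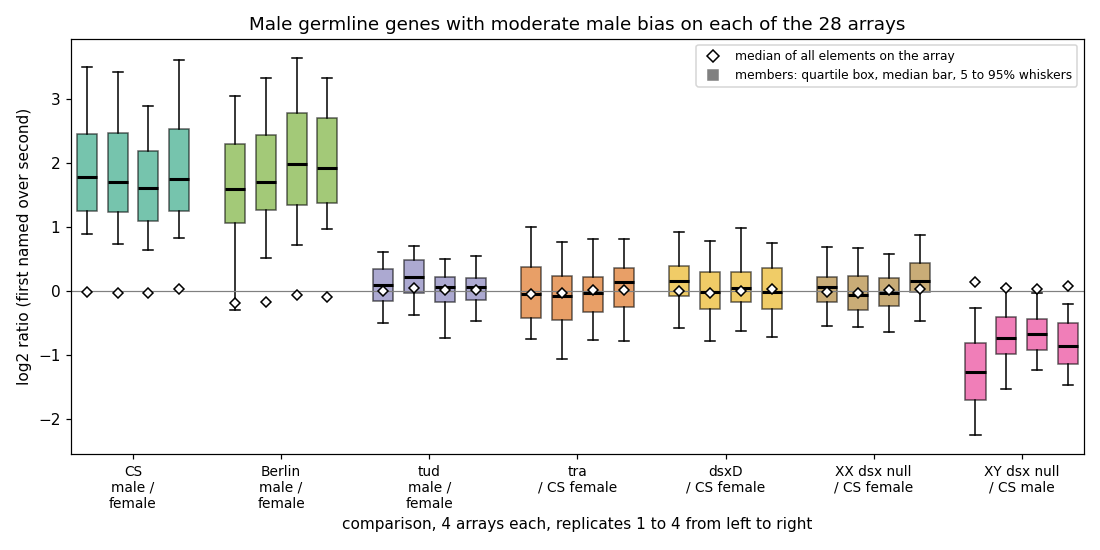
Log2 ratio of the members on each of the 28 arrays, in the 7 comparisons with replicates 1 to 4 from left to right. Boxes are quartiles over members, thick bars medians, whiskers the 5th to 95th percentiles and diamonds the median of all elements on that array. The member medians are between 1.59 and 2.00 in CS and Berlin by the choice of members, near 0 in tud, tra, dsxD and XX dsx null arrays, and between -1.25 and -0.67 on the 4 XY dsx null arrays.

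Many members could not be measured in the 4 comparisons in which no sample was an XY animal with a germline. The authors emptied a spot where neither channel was above background, and also where the scanner software or inspection by eye had rejected it. The values do not tell these apart, so an empty value is not by itself a low level. Values on at least 2 of 4 arrays were obtained for 120 members in tud progeny (50.6%), 115 in tra pseudomales (48.5%), 143 in dsxD pseudomales (60.3%) and 107 in XX dsx nulls (45.1%), against 236 in XY dsx nulls (99.6%). Of all 7655 elements that met the same requirement on CS and Berlin arrays, 79.6%, 80.2%, 84.1% and 71.4% were measured in the tud, tra, dsxD and XX dsx null comparisons, in that order, and 85.1% in the XY dsx null comparison. The strongly biased genes of the list were measured in between 5.52% and 13.8% of cases in these 4 comparisons, and those with little bias in between 85.7% and 91.4%. No test was made of these shares. A spot kept its value if either channel passed, and members needed values on arrays that all carried wild type male RNA. The XY dsx null arrays carry such RNA too. The high share of members there, and the lower shares without such RNA, thus follow in part from how the members were chosen. For tud progeny the study's list adds to this. It took genes with lower expression in tud males than in wild type males, or with none in tud males.

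The members fall into groups by this measure. For 71 members none of the 4 comparisons had 2 arrays with values, and 53 of these had no value on any of the 16 arrays. Their wild type median was 2.39, a value that the choice of members used. For 76 members each of the 4 comparisons had values on at least 2 arrays, and their wild type median was 1.30. Counts of calls below therefore rest on the members that could be measured, which are not a fair sample of all members.

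**Figure D2:**
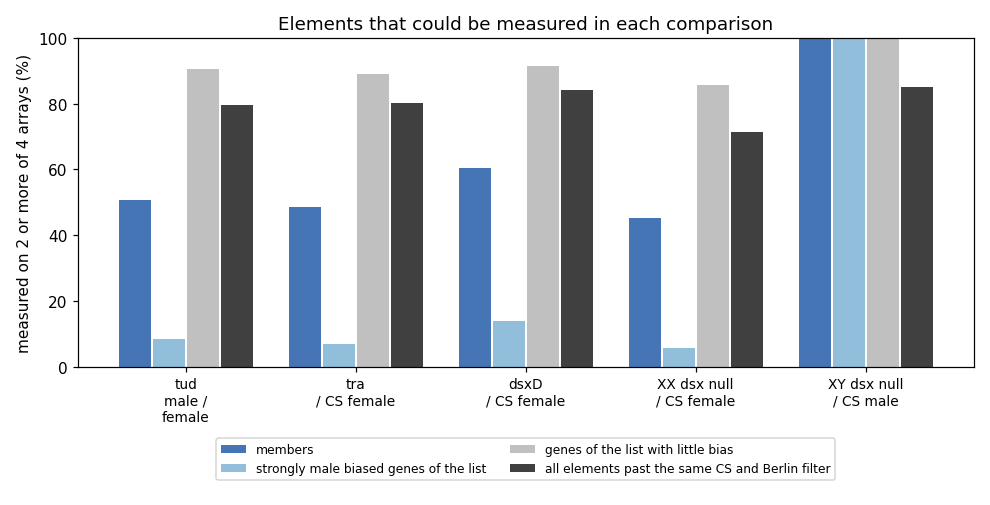
Share of elements with values on at least 2 of 4 arrays (vertical axis, percent) in the 5 comparisons that did not choose the members, for the members, the strongly male biased genes of the list, the genes of the list with little bias, and all elements that passed the same filter on CS and Berlin arrays. The members lie between 45.1% and 60.3% in the first 4 comparisons and at 99.6% in XY dsx nulls. They were chosen on arrays with wild type male RNA, which the XY dsx null arrays also carry.

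In tud progeny, which lack germ cells, the male bias of the members was small. The study's list took genes with lower expression in tud males than in wild type males, or with none in tud males. A small bias here thus follows in part from how the list was made. The median log2 ratio of male over female was 0.09 over 120 members, against 0.02 over all 7851 elements tested, and the array medians of members lay between 0.06 and 0.22. With limma and a q value below 0.15, 7 members were called higher in males (5.83%), where 7.5% of all elements were, and 5 were called lower (4.17%), where 7.68% of all elements were. The 4 called higher with values of 1 sign on 3 or more arrays were the ubiquitin ligase Ube3a, CG5280, the zinc transporter family member Zip99C and the cofilin phosphatase ssh. Ube3a was at 0.22, 0.89, 0.59 and 0.34 in male over female tud progeny (0.51 ± 0.14, SE, limma, q = 0.0859), less than its mean of 1.13 ± 0.30 in the wild type strains. CG5280 was at 0.63, 0.69, 0.56 and 0.02, with replicate 4 close to 0. Nna1 (0.80), the flagellar protein Tektin-C (0.64) and the arginine kinase Argk2 (0.55) were each called on 2 arrays alone.

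Members lower in male tud progeny were CG1146 and Lasp, each on 4 arrays. CG1146 was at -0.53, -0.51, -0.75 and -0.18 (-0.49 ± 0.13, SE, limma, q = 0.0731). Lasp was at -0.61, -0.02, -0.79 and -0.44. The calls of Cdc7 (-0.67) and gish (-0.53) rested on 2 arrays, and sm (-0.49) was above 0 on replicate 2. The tud counts were not stable: leaving out replicate 1, 2, 3 or 4 left 0, 2, 0 and 4 members called higher and 0, 3, 1 and 1 called lower. With Benjamini-Hochberg adjustment 2 were higher and 1 lower, and an unmoderated t statistic called 0 members and 0 elements of any kind, although 12 members had an unadjusted p under 0.05.

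In XY dsx nulls nearly all members fell relative to CS males. These pupae have the male karyotype but no DSX protein and are intersexual, and 229 of the 236 members measured were lower in them than in CS males (97.0%), where 34.2% of all 8583 elements were called lower. Only 3 members were called higher (1.27%), where 46.7% of all elements were. The median of the members was -0.90, 1.86-fold lower in the nulls, against 0.10 over all elements. It was -1.25, -0.72, -0.67 and -0.85 on the 4 arrays, so replicate 1 was lowest and all 4 were below 0. Of the 236 members, 209 were below 0 on every XY dsx null array with a value, 190 were at or below -0.5 and 94 were at or below -1. CS males were also the group in which the members were chosen as high, by the rule and by the study's list. Where CS RNA was shared, that choice alone could lower these ratios, by an amount that was not tested.

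The threshold was permissive in this comparison, where 80.9% of all elements passed and q below 0.15 reached up to an unadjusted p of 0.419. With Benjamini-Hochberg adjustment 215 members were lower and 0 higher, and 211 members had an unadjusted p under 0.05, all of them lower. With each array centered on its median, 231 members were lower and 1 higher and the member median was -0.98. The calls of all elements were then 3277 higher and 3239 lower, against 4005 and 2938 without centering.

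The members with the lowest values reached a difference near 4-fold. CG2964, one of the study's glycolysis genes, was at -2.01, -2.68, -1.59 and -1.77 in XY dsx nulls over CS males (-2.01 ± 0.19, SE, limma, q = 9.5e-05). COX6AL2, a copy of a cytochrome c oxidase subunit gene, was at -2.30, -1.68, -1.51 and -1.93 (-1.86 ± 0.16, limma, q = 6e-05). In the wild type strains their male over female means were 2.29 ± 0.51 and 2.35 ± 0.59 (SD, n = 8 each). CG6661 ranged from -2.91 to -1.04 and CG7309 from -2.35 to -0.94 on 3 arrays. Dera, whose product is a deoxyribose-phosphate aldolase, lay between -2.33 and -1.36 on 3 arrays. None of these 5 genes had values on more than 2 arrays of any 1 of the tud, tra, dsxD or XX dsx null comparisons.

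A few members were not lower in XY dsx nulls. Kermit, a PDZ domain protein, was at -0.03, 0.07, 0.25 and 0.26 (0.14 ± 0.12, SE, limma, q = 0.111). CG10126 was at -0.21, 0.12, 0.61 and 0.30 (0.21 ± 0.15, limma, q = 0.0906). betaNACtes6, a testis copy of the beta subunit of the nascent polypeptide-associated complex, was at -0.08, 0.34, 0.75 and -0.01 (0.25 ± 0.16, limma, q = 0.0727). These 3 were the members called higher and none had 1 sign on all arrays, so they are named here after their values were seen. Not called in either direction were orb2 (0.05), the DnaJ co-chaperone mrj (-0.12), the SR protein kinase Srpk79D (-0.08) and CG7856, which was at 3.05, -1.05 and -1.58.

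**Figure D3:**
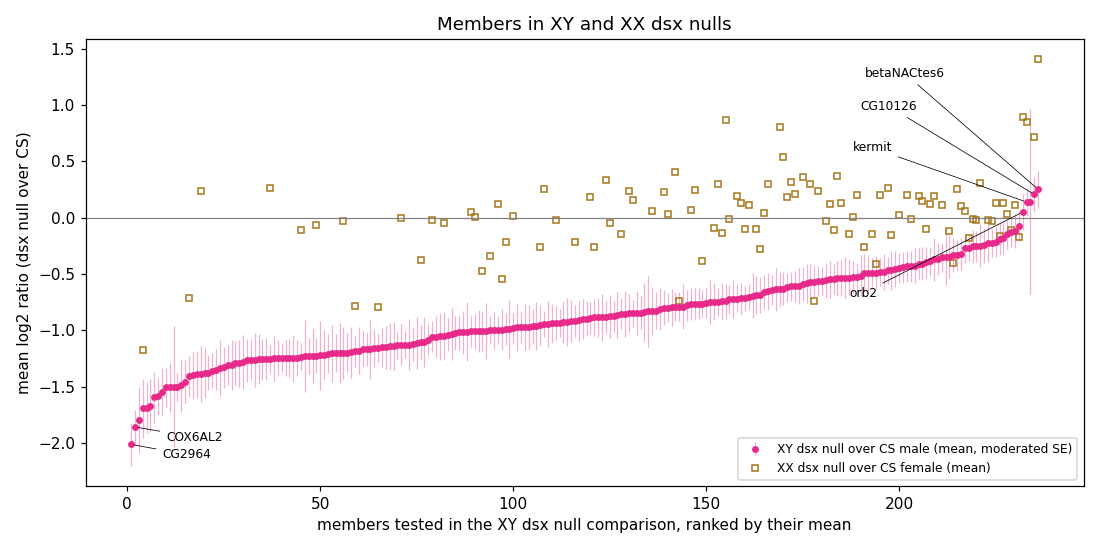
Mean log2 ratio of dsx null over CS (vertical axis) for the 236 members tested in XY dsx nulls, ranked by that mean (horizontal axis). Filled points with error bars are XY dsx nulls over CS males (mean, moderated SE) and open squares are XX dsx nulls over CS females, shown for the 107 members with at least 2 arrays. The XY values run from -2.01 for CG2964 to 0.25 for betaNACtes6. The XX values lie on both sides of 0 over much of the ranking, but are above 0 for betaNACtes6, CG10126, kermit and orb2 at its upper end.

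In XY dsx nulls each of 6 lists of members by role held genes that fell. Of all members 97.0% were called lower, and of all elements 34.2%, so nearly complete counts in a list say nothing about its role. Among genes of the sperm tail, microtubules and motors, all 11 members were lower, with a median of -0.93. betaTub85D, the tubulin of the sperm axoneme and the meiotic spindle, was at -2.19, -1.07, -0.77 and -1.48 (-1.38 ± 0.62, SD, n = 4). The kinesin Klp59D averaged -1.25, Tektin-C -1.05 and the dynein-associated nudC -0.93. The kinesin Klp10A (-0.35) and the microtubule plus-end protein CLIP-190 (-0.26) were nearer to 0. Of the sperm-specific dynein intermediate chain genes, Sdic3 averaged -1.23, Sdic2 -0.98 and Sdic1 -0.15, but these copies are nearly identical and their probes may share transcripts. On XY dsx null replicate 1 Sdic3 was at 0.14, and it was between -2.03 and -1.32 on the other 3 arrays.

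On the list for mitochondrial import, chaperonins and energy, 7 of 7 members were lower, with a median of -0.62. That median is the mean of the peroxiredoxin Prx4, which the list holds although it is not an import, chaperonin or energy gene. The testis copies of the outer membrane import channel, tomboy20 and tomboy40, averaged -1.33 and -0.61, and the broadly used receptor Tom70 was at -0.54. Hsp60D, a chaperonin, averaged -1.31 on 3 arrays, the ADP/ATP carrier Ant2 -0.85, and the inner membrane import subunit Tim17a1 -0.42. A longer list of mitochondrial genes made by the study on these genes, of which 36 accessions were held here, contained 13 members, and all 13 were lower with a median of -1.14. That list and the other terms of the study were drawn from the same male germline genes, so they are no independent evidence of direction. By the study's terms, all members were lower among those for the microtubule cytoskeleton (10), ubiquitin cycle (6), spermatogenesis (6), protein targeting to mitochondrion (6), glycolysis (3), unfolded protein binding (2), the tricarboxylic acid cycle (2) and the nuclear pore (1).

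RNA-binding and translational regulators were lower in 6 of 7 cases, with a median of -0.88. Several of them are best known from oogenesis. The mRNA localization factor exu was at -1.25 ± 0.19, the translational repressor bru1 at -0.998 ± 0.18 and the deadenylase subunit twin at -0.89 ± 0.29 (SD, n = 4 each). The meiotic translation regulator bol was at -0.88, BicC at -0.63 and the translational repressor cup at -0.47. The exception was orb2, a CPEB protein needed in spermatids and in memory, whose values in XY dsx nulls over CS males were -0.46, 0.33, 0.17 and 0.16.

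Of the ubiquitin and proteasome genes, 5 of 5 were lower, with a median of -0.83. The polyubiquitin gene Ubi-p63E averaged -0.99, the cullin Cul3 -0.85, the testis proteasome subunit Prosbeta5R1 -0.83, Ube3a -0.72 and the deubiquitinase Uch-L5 -0.43. The heat shock cognate Hsc70-2 fell to -1.40, whereas its list partner mrj was not called. Of the cell cycle genes, the replication kinase Cdc7 (-0.79), the condensin subunit Cap-G (-0.41) and the mitotic inhibitor kinase Wee1 (-0.40) were all lower. No list was tested as a list. All of these medians stand beside the member median of -0.90 and the median of 0.10 over all elements.

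**Figure D4:**
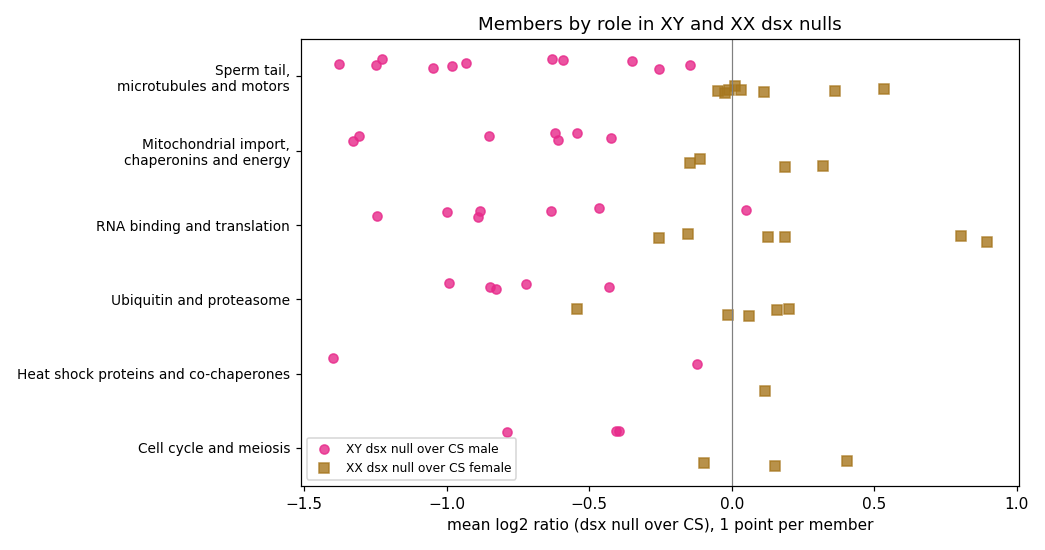
Mean log2 ratio of dsx null over CS (horizontal axis) for the members of 6 lists of genes by role (vertical axis), 1 point per member. Circles are XY dsx nulls over CS males and squares are XX dsx nulls over CS females. The circles lie below 0 for all members of these lists except orb2, and the squares scatter around 0 between -0.54 and 0.90.

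Members that differed in where they could be measured were also set side by side. The 70 members that were measured in XY dsx nulls but had under 2 arrays in each of the tud, tra, dsxD and XX dsx null comparisons had a median of -1.12, and 69 were called lower. The 76 members measured in all 4 of these comparisons had a median of -0.66, and 70 were called lower. By their mean in Berlin, whose 4 arrays are among the 8 that chose the members, so that the order is only a description, members below 1.5 had a median of -0.71 (88 members), those between 1.5 and 2 of -0.80 (55), those between 2 and 2.5 of -1.03 (44) and those at 2.5 or more of -1.13 (49). Among the strongly biased genes of the list all 145 were called lower, with a median of -1.34, and among those with little bias 164 of 210 were, with a median of -0.38. On the list of female germline genes 184 of 330 elements were higher (55.8%), where 46.7% of all elements were, and 84 were lower (25.5%). Their median was 0.19, against 0.10 over all elements. Of all members 97.0% were called lower, and of all elements 34.2%. The strong and little bias groups were split by CS and Berlin male over female values, so the same limit on CS males holds for them. These are side by side values and no difference between lists was tested.

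Members on all of the large chromosome arms were lower. Of 234 members placed in the gene table, 63 lay on 3R, 51 on 2R, 51 on 3L, 43 on 2L and 26 (11.1%) on the X. The X holds 9.03% of the strongly biased genes of the list and 7.18% of those with little bias. The share of all elements on the X was not computed, and the study reported its male germline genes as underrepresented there. In XY dsx nulls the median was -1.07 for the 26 X-linked members and between -0.96 and -0.83 on the 4 autosomal arms. Of the X-linked members 25 of 26 were called lower, where 97.0% of all members and 34.2% of all elements were.

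In XX dsx nulls the members moved in both directions and by less. Their median relative to CS females was 0.03 over 107 members, against 0.01 over all 6867 elements. CS females were the group in which the members were chosen as low, which could raise these ratios where CS RNA was shared. With limma, 18 members were called higher (16.8%), where 20.2% of all elements were, and 14 were called lower (13.1%), where 20.2% of all elements were. Without replicate 4, the array with roX1 and sperm gene values far above 0, the median was 0.00 (-0.0013) over 93 members, with 13 called higher and 12 lower. Leaving out replicate 1 left 11 called higher, and leaving out replicate 2 left 9 called lower. On replicate 4 itself the member median was 0.16, against -0.06 to 0.08 on the other 3 arrays, and 4 members were at or above 1, against 1, 3 and 0 on replicates 1, 2 and 3.

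The difference between both dsx null effects was tested directly on the 107 members measured in XY and XX nulls. The XY effect was lower than the XX effect for 88 of them (82.2%), where 11.5% of all 6419 elements passed in that direction, and higher for 0 of them, where 36.8% of all elements passed. No member passed in that direction at an unadjusted p under 0.05 or after Benjamini-Hochberg adjustment either. The median difference was -0.69, against 0.19 over all elements. The XY effect is again relative to CS males, in which the members were chosen as high. The XX effect is relative to CS females, in which they were chosen as low. Where CS RNA was shared, both choices could make the difference more negative, by an amount that was not tested. Without XX dsx null replicate 4 the count was 75 of 93, and with Benjamini-Hochberg adjustment it was 72. The largest differences among members named by rule were those of CG6279 (-1.61 ± 0.22, SE, limma, q = 0.00597) and BicC (-1.44 ± 0.18, limma, q = 0.00597). CG9254 (-1.62 ± 0.31) and the exonuclease gene Rexo5 (-1.52 ± 0.21) were as far apart, and are named here after their values were seen.

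A small number of members were higher in XX mutants than in CS females. The tra, dsxD and XX dsx null comparisons have CS females in common, so that they are not independent, and their values are given side by side. CS females were also the group in which the members were chosen as low. Where CS RNA was shared, that choice alone could raise these ratios, by an amount that was not tested. In tra pseudomales 12 of 115 members were called higher (10.4%), where 11.5% of all 7587 elements were, and the median was -0.03, against 0.00 (-0.0041) over all elements. In dsxD pseudomales 21 of 143 were called higher (14.7%), where 13.4% of all 8335 elements were, and the median was 0.03, against 0.02. These shares are near the background and say nothing about the members as a set. Without tra replicate 4 the tra count was 6, and without dsxD replicate 1 the dsxD count was 7.

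The CPEB gene orb2 had the clearest profile. Its log2 ratios over CS females were 1.59, 1.70, 0.82 and 1.15 in tra pseudomales (1.32 ± 0.18, SE, limma, q = 0.00592). In dsxD pseudomales they were 1.74, 1.01, 0.49 and 0.96 (1.05 ± 0.21, limma, q = 0.0084), and in XX dsx nulls 1.03, 0.81, 0.99 and 0.75 (0.90 ± 0.10, limma, q = 0.00122). All 12 arrays were above 0. Its male over female ratio in tud progeny was -0.24, 0.50, 0.20 and 0.15 and was not called, while CS and Berlin males exceeded females by 1.84 to 3.16. CG6279, of unassigned function here, was at 1.08, 1.47 and 1.74 in tra pseudomales (1.43 ± 0.19, limma, q = 0.00717). It was at 1.34, 0.72, 0.22 and 1.15 in dsxD pseudomales and at 0.68, 1.33, 0.58 and 0.87 in XX dsx nulls, and it fell to between -1.06 and -0.25 in XY dsx nulls, against CS males. In these XY nulls CG6279 was below 0 on all 4 arrays and orb2 on 1 of 4.

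betaNACtes6 was at 1.68 and 1.44 in tra pseudomales, the only 2 arrays with a value, at 1.32 and 0.29 in dsxD pseudomales, and at 0.73, 1.74 and 1.75 in XX dsx nulls (1.41 ± 0.23, SE, limma, q = 0.00676). Kermit was at 0.54, 0.53, 0.02 and 0.36 in tra pseudomales, at 1.02, 1.01 and 0.18 in dsxD pseudomales, and at 0.82, 0.99, 0.71 and 0.88 in XX dsx nulls (0.85 ± 0.10, limma, q = 0.00131). In tud progeny kermit was at 0.86, 1.46 and -0.15, which did not pass. CG10126 was called higher in all 3 comparisons, at 0.48 ± 0.13, 0.73 ± 0.17 and 0.72 ± 0.14 (SE), and was above 0 on all 12 arrays. Without XX dsx null replicate 4 it was at 0.66 ± 0.17 in XX dsx nulls (limma, q = 0.0392). Jupiter, a microtubule-associated protein, was called at 0.44, 0.52 and 0.53, with all 12 arrays above 0, and at 0.37 ± 0.16 in XX dsx nulls without replicate 4 (limma, q = 0.131). Its wild type bias differed by strain, from 1.74 to 2.31 in CS and from 2.63 to 3.58 in Berlin.

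CG31546, dtr and CG8565 were higher in pseudomales and had values on no more than 2 XX dsx null arrays. CG31546 was at 1.43, 1.07 and 1.30 in tra pseudomales and at 1.43, 1.31, 0.46 and 1.41 in dsxD pseudomales, and it was lower in XY dsx nulls, between -1.45 and -0.44. The gene dtr lay between 0.33 and 0.97 in tra pseudomales (0.67 ± 0.15, SE, limma, q = 0.031) and between 0.47 and 0.91 in dsxD pseudomales (0.72 ± 0.15, limma, q = 0.0119). CG8565 lay between 0.61 and 0.91 in tra pseudomales and between 0.34 and 0.61 in dsxD pseudomales, yet it was among the lower members in XY dsx nulls, from -2.03 to -0.67. BicC, an RNA-binding protein known from oogenesis, was at 0.69, 0.61, 0.91 and 1.02 in XX dsx nulls (0.81 ± 0.11, limma, q = 0.00246), and had too few values in tra pseudomales. Without XX dsx null replicate 4, the XX dsx null means were 1.23 for betaNACtes6, 0.94 for orb2, 0.87 for CG6279, 0.84 for kermit and 0.74 for BicC, and all 5 were still called.

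**Figure D5:**
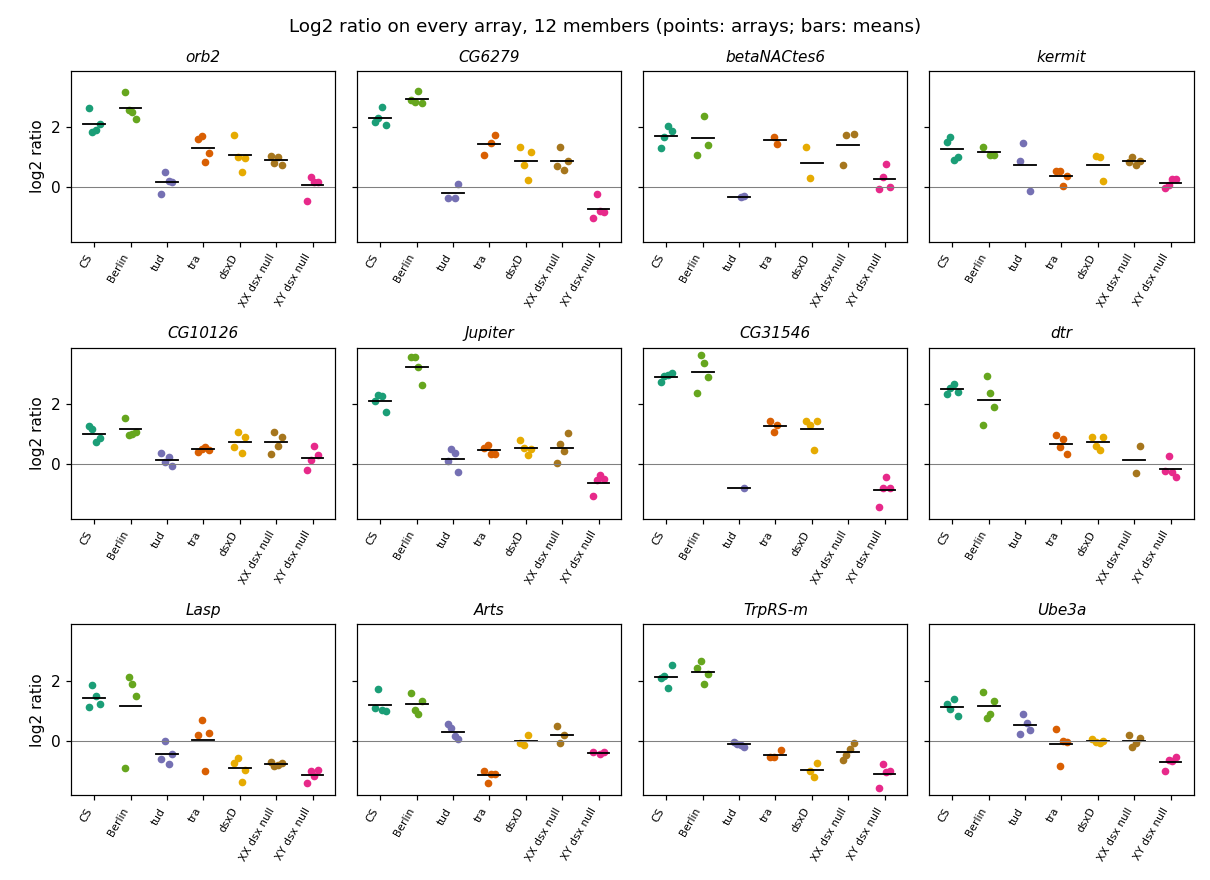
Log2 ratio on every array (vertical axis) for 12 members in the 7 comparisons (horizontal axis: male over female for CS, Berlin and tud; mutant over CS female for tra, dsxD and XX dsx null; XY dsx null over CS male). Points are arrays and bars means. orb2, CG6279, betaNACtes6, CG10126 and Jupiter lie above 0 on every tra, dsxD and XX dsx null array with a value, whereas Lasp is below 0 on every dsxD, XX dsx null and XY dsx null array.

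Members lower than in CS females included Arts in tra pseudomales, CG18675 in dsxD pseudomales and Lasp in dsxD pseudomales and XX dsx nulls. In tra pseudomales 21 of 115 members were lower (18.3%), where 13.3% of all elements were. Without tra replicate 1, 2, 3 or 4 the count was 12, 12, 13 and 4, and with Benjamini-Hochberg adjustment it was 8. The lowest was Arts, one of the study's nuclear pore genes, at -1.03, -1.41, -1.11 and -1.12 (-1.17 ± 0.14, SE, limma, q = 0.00312). The myeloid leukemia factor homolog Mlf was at -1.08, -1.32, -0.61 and -0.43, and the puromycin-sensitive aminopeptidase Psa was at -0.46, -0.61, -0.68 and -0.77. CG10365 averaged -0.63, and was also called lower in dsxD pseudomales (-0.56) and XX dsx nulls (-0.78, 2 arrays, of which replicate 4 is 1, so that no test was left without it). CR33317 averaged -0.55 on 3 arrays.

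In dsxD pseudomales 10 of 143 members were lower (6.99%), where 12.9% of all elements were. Without dsxD replicate 1 or replicate 2 the count was 6 and 5. CG18675 was at -2.17, -2.16, -1.29 and -2.07 (-1.92 ± 0.19, SE, limma, q = 0.000248), the largest change of a member with values on at least 2 arrays in the pseudomale and XX null comparisons, and it had no value in tra pseudomales or XX dsx nulls. The mitochondrial tryptophanyl-tRNA synthetase TrpRS-m was at -1.02, -1.20 and -0.76 in dsxD pseudomales (-0.99 ± 0.18, limma, q = 0.00826), and was also called lower in tra pseudomales (-0.47) and XX dsx nulls (-0.37, and -0.47 without replicate 4). CG5217 averaged -0.80 on 3 arrays and CG31523 -0.47.

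In XX dsx nulls the lowest of the members with 1 sign on 3 or more arrays was Lasp, at -0.73, -0.87, -0.82 and -0.75 (-0.79 ± 0.10, SE, limma, q = 0.00143). It was also at -0.76, -0.58, -1.38 and -0.98 in dsxD pseudomales, and at -1.16 ± 0.19 (SD, n = 4) in XY dsx nulls relative to CS males. In tra pseudomales its signs were mixed, at 0.20, 0.68, -1.02 and 0.26. CG31523 averaged -0.74, Ubi-p63E -0.54, the mitochondrial pyruvate carrier subunit Mpc1 -0.47 and the sugar kinase Nagk -0.40 in XX dsx nulls. Without replicate 4 these 5 genes were still called lower, between -0.81 for Lasp and -0.41 for Nagk.

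The pseudomale genotypes were also set against each other, dsxD minus tra, since both make the male DSX protein in XX pupae. The difference passed for 5 of 113 members (4.42%), where 9.63% of all 7136 elements passed in either direction. It was positive for Arts (1.15 ± 0.19, SE, limma, q = 0.0086), Psa (0.91 ± 0.16, limma, q = 0.00927), CG31055 (0.88) and Mlf (0.72), and negative for Lasp (-0.95). Arts, Psa, CG31055 and Mlf were called lower in tra pseudomales. CG31055 was also called higher in dsxD pseudomales (0.49), and Psa lay between 0.15 and 0.44 there without a call. Only Arts and Psa passed at q below 0.05. Without dsxD replicate 1 or 3, or tra replicate 1 or 2, the count was 3, 2, 3 and 3. For orb2, CG6279 and CG31546 the difference was not called, with -0.27 ± 0.29, -0.57 ± 0.30 and -0.11 ± 0.27 (SE), and a miss of the threshold does not show that they were alike.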

How the data were processed

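Values were taken as deposited: log2 ratios of 28 two-color arrays, which the authors had scanned with GenePix software, emptied where neither channel passed a filter (over 75% of the spot's pixels exceeding background by 1 SD) or where the software or inspection by eye had rejected the spot, and normalized by global loess in LIMMA, with the dye-swapped arrays already turned. The limma version and any background correction or scaling between arrays are not given in the sources used here. The deposited female over male, CS female over mutant and CS male over XY dsx null ratios were all turned in sign, so that positive values are higher in males or in mutants. The direction of the deposited ratios was not stated beside the values. It was taken from the fold change headings of the study's lists and from roX1.

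After 32 control elements were left out, each comparison was fitted with limma 3.58.1 (lmFit, eBayes) in R 4.3.3, testing the 4 ratios against 0 (two-sided) for all elements with values on at least 2 arrays. Storey q values (lambda 0.05 to 0.95) were computed over all elements of a comparison, and elements with q below 0.15 were called. Differences between comparisons were limma contrasts. The SE beside a tested mean is limma's moderated one. The fits were tested on simulated data. Because nothing in the labels describes separate cultures, p-values measure only the spread between these samples.

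The members and gene lists were chosen with earlier results of these data known. Genes named were the 5 highest and 5 lowest called members of each tested comparison with 1 sign on 3 or more arrays, members measured on all 28 arrays with the 5 smallest and 5 largest SDs, those at the limits of the rule, and those on the role lists. A few others are said to be named after their values were seen. The columns used all belonged to a sample (0 did not). Gene symbols and chromosome arms were taken from a RefSeq gene table (Release 6), by locus tag for 223 members and by synonym for 11. Alternatives were Benjamini-Hochberg adjustment, q below 0.05, a dye term, at least 3 arrays, centering, scaling, an unmoderated statistic, 1 fit over all arrays with and without a replicate block, and leaving out each array.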

Additional observations from a re-analysis of the deposited data

Results flagged for a closer look

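Single arrays stood apart in 2 of 39 groups of 4 arrays, where about 1 in 20 would by chance. Both cases were on the same array, replicate 3 of the dsxD pseudomales. Whether that array differed as a whole was not tested. In dsxD pseudomales CG31546 was at 0.46 on replicate 3 and between 1.31 and 1.43 on the other arrays, and CG18675 was at -1.29 on replicate 3 and between -2.17 and -2.07 on the others.

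The effect of losing dsx differed between XY and XX pupae by limma contrast for 88 members, all lower in XY. Among the members named by rule, the XY minus XX differences on the log2 scale were -1.61 for CG6279, -1.44 for BicC, -1.16 for betaNACtes6 and -1.12 for Zip99C. They were -0.85 for CR33317, -0.84 for orb2, -0.82 for Mlf, -0.80 for ssh, -0.73 for Psa, -0.73 for TrpRS-m, -0.71 for kermit and -0.71 for Ube3a. Smaller ones were -0.60 for Arts, -0.53 for Mpc1, -0.51 for CG10126, -0.45 for Ubi-p63E, -0.40 for CG10365 and -0.36 for Lasp. For kermit, CG10126, betaNACtes6 and orb2 this difference came with a higher level in XX nulls and means between 0.05 and 0.25 in XY nulls. For Lasp and Ubi-p63E both nulls were lower. Without XX dsx null replicate 4, of the 88 members 75 were still called, 3 were not and 10 had under 2 XX arrays left, and of the 18 named here 17 were still called and CG10365 had 1 XX array left.

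The dsxD and tra effects differed for 5 members. Among those named by rule the dsxD minus tra differences were 1.15 for Arts, 0.91 for Psa, 0.72 for Mlf and -0.95 for Lasp.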

How the results depend on the processing

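No named member reversed in any of the alternatives, and the medians of members moved by less than the spread between arrays in all of them. The 229 members lower in XY dsx nulls and the 88 lower in XY than in XX nulls stayed within 1.5 times of these counts, with 224 to 226 and 66 to 90 when 1 array was left out. Other counts moved. For tud males, 7 called higher became 2 with Benjamini-Hochberg adjustment, 0 at q below 0.05, 34 with a dye term, 11 with scaled arrays, 0 with an unmoderated statistic and 0 to 4 without 1 array. For tra, 12 became 7 at q below 0.05, 22 with a dye term, 7 unmoderated and 6 to 12 without 1 array. For dsxD, 21 became 10 with Benjamini-Hochberg adjustment, 8 at q below 0.05, 11 unmoderated and 7 to 19 without 1 array. For XX dsx nulls, 18 became 10 with Benjamini-Hochberg adjustment, 7 at q below 0.05, 10 in 1 fit over all arrays and 11 to 22 without 1 array. For dsxD minus tra, 5 became 3 with Benjamini-Hochberg adjustment, 2 at q below 0.05, 13 with a dye term, 8 with at least 3 arrays, 3 unmoderated, 10 in 1 fit over all arrays and 2 to 6 without 1 array. Deviations of same-numbered arrays correlated at a mean of 0.26 for XY with XX nulls and 0.28 for dsxD with tra, against -0.09 each for other numbers (1064 elements). The lowest pairs were at 0.07 and 0.09, and no label says what a number shares, so numbers were not taken as pairs. The dye orientation also goes with the number. With a replicate block the counts were 5 for tud, 18 for tra, 26 for dsxD, 12 for XX dsx nulls, 230 for XY dsx nulls, 75 for XY minus XX and 12 for dsxD minus tra. Chosen after seeing the data were the split of all XY dsx null calls by direction under centering, and the singling out of XX dsx null replicate 4. Centering brought the share of higher among all XY dsx null calls to 50.3%, against 57.7% without it. The cause of these changes was not tested. Of 41 calls of named members, 36 held with Benjamini-Hochberg adjustment and 30 with the unmoderated statistic. Empty values limit what 4 arrays can show of many members.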
